A study of Mus musculus with 6 samples.

Results

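Interferon-gamma, the 2 chains of its receptor, the kinases bound to them and the regulators that act below them were followed here in lung tumors grown with and without interstitial pneumonia (IP). The 9 genes were Ifng, Ifngr1, Ifngr2, Jak1, Jak2, Irf1, Irf8, Socs1 and Socs3, taken by symbol from the 31130 genes of the count tables. All 9 were found, each with 1 Ensembl identifier. The LC model (lung cancer alone, n = 3 tumors) and the IP + LC model (lung cancer with IP, n = 3 tumors) were compared in female wild-type C57BL/6 mice of 6 to 8 weeks. Every mouse received 500000 Lewis lung carcinoma (LLC) cells, a lung cancer line of C57BL/6 mice that carried enhanced green fluorescent protein, in the left lung on day 14, and tumor tissue was taken on day 21. Mice of the IP + LC group had been given bleomycin, which injures the lung and leads to fibrosis, at 2.0 mg/kg through the oropharynx on day 0, and the LC group had saline by the same route in the study's scheme. The labels name cancer cells, but RNA came from whole tumor tissue without sorting, and lung, vessel and immune transcripts were present in all 6 libraries. No tumor-free group with bleomycin was analysed here, so an effect of bleomycin on the lung and an effect on the tumor cannot be told apart. In bulk tissue, fewer cells of a type and less RNA per cell cannot be told apart either.

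Interferon-gamma is a cytokine made mainly by T cells and NK cells. It binds a receptor of the chains IFNGR1, which binds the ligand, and IFNGR2, which is needed for the signal. The kinases JAK1 and JAK2 are bound to these chains and start the signal to the nucleus, where it is read at a DNA element known as the gamma-activated site (GAS). Among the genes induced is that of IRF1, a transcription factor that in turn binds interferon response elements, while IRF8 is a related factor of macrophages and dendritic cells. SOCS1 and SOCS3 are induced by cytokines and restrain JAK signaling, SOCS1 that of the interferon receptors and SOCS3 that of receptors using gp130.

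The promoters of the 4 genes that passed the test in the comparison below are shown because 3 of them hold a GAS and the fourth a pair of IRF motifs. Each sequence is the 250 bases before the RefSeq transcription start on build GRCm38.p6, written 5′ to 3′ on the strand of the gene, and capitals mark the motif matches. Irf1 is read from chr11:53769764-53770013 on the plus strand, Irf8 from chr8:120736108-120736357 on the plus strand, Socs1 from chr16:10785537-10785786 on the minus strand and Socs3 from chr11:117969367-117969616 on the minus strand.
Irf1: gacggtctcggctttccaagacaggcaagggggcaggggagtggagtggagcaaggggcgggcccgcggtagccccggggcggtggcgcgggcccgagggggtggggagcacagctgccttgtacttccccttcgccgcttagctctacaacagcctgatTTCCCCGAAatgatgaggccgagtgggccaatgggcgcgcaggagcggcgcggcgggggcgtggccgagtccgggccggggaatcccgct
Irf8: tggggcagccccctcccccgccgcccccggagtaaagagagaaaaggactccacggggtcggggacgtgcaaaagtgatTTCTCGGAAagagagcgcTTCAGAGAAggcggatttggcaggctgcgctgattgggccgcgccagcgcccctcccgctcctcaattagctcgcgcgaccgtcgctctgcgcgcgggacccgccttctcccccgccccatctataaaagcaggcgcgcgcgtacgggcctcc
Socs1: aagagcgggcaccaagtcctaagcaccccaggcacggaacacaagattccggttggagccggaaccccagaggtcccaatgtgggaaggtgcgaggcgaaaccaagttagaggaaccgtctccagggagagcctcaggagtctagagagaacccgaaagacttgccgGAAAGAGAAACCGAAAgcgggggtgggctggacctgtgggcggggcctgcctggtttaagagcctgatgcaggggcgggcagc
Socs3: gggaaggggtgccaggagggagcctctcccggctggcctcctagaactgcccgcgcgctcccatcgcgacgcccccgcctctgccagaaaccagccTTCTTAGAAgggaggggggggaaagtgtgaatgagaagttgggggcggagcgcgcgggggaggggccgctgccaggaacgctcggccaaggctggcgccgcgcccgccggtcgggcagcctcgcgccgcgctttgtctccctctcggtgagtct

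The GAS was searched as TTCNNNGAA and the IRF motif as GAAANNGAAA, on both strands, in windows of 300 bases that run from 250 before to 50 after the start. Among 32851 RefSeq promoters, 8.298% held the GAS and 3.443% the IRF motif. The GAS of Irf1 lay 90 to 82 bases before its start. Irf8 held 2 GAS matches, at 171 to 163 and 153 to 145 bases before its start, and Socs3 held 1 at 154 to 146 bases. In Socs1, the IRF motif matched at 83 to 74 and at 77 to 68 bases before the start, and these matches overlap in 4 bases. Ifng held a GAS at the far edge of its window, 249 to 241 bases before the start. The windows of Ifngr1, Ifngr2, Jak1 and Jak2 held neither motif, nor did the second RefSeq starts of Irf1 and Irf8. A match describes the letters of the window, and binding was not measured.

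**Figure D1:**
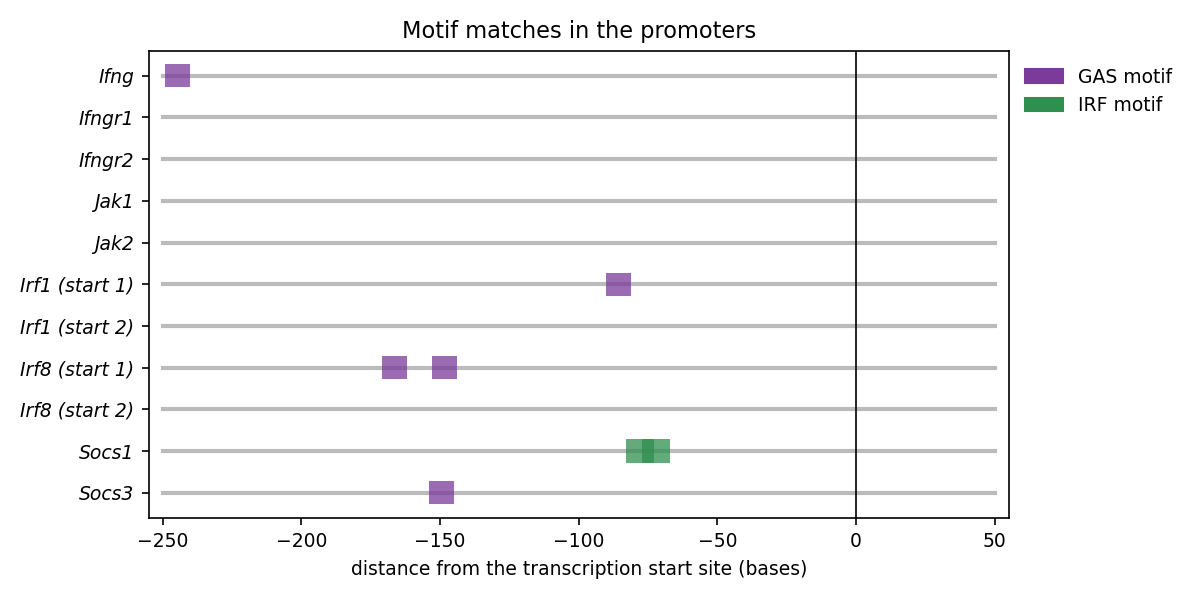
Motif matches in the 11 RefSeq promoters of the 9 genes, drawn as boxes along the distance from the transcription start site in bases (x axis), with 1 line per promoter. Matches to the GAS are seen in Ifng, Irf1, Irf8 and Socs3, the IRF motif in Socs1, and none in the receptor chains and kinases.

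Gene expression was measured as counts of unique molecular identifiers (UMIs), each of which stands for 1 captured transcript molecule. The libraries held 592733 to 1379759 UMIs in the LC group and 1336919 to 1631066 in the IP + LC group. LC replicate 1 was the smallest library, with a floor of 3 UMIs at 5.06 CPM (UMIs per 1000000 of the library) against 1.84 to 2.24 CPM in the others, and calls of the genes named here that change without it are given both ways. Levels are in CPM after scaling by the trimmed mean of M values (TMM). The IP + LC and LC groups were compared by edgeR's quasi-likelihood test over 11240 genes with Benjamini-Hochberg adjustment, and a gene passed at an adjusted p below 0.1, the limit of the study. Of the 9 genes, 8 were tested, 4 were significantly higher with IP and 0 lower. Over all tested genes, 16.8% were higher and 19.6% lower. Across the 8, the median log2 fold change was 1.03, set against 0.02 across all tested genes. Counting tumors alone, 6 of the 8 tested genes were higher in every IP + LC tumor than in every LC tumor, where 21.6% of all tested genes were, and 0 were lower throughout, where 21.5% were. Ifng, which did not enter the test, was also higher in every IP + LC tumor.

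**Figure D2:**
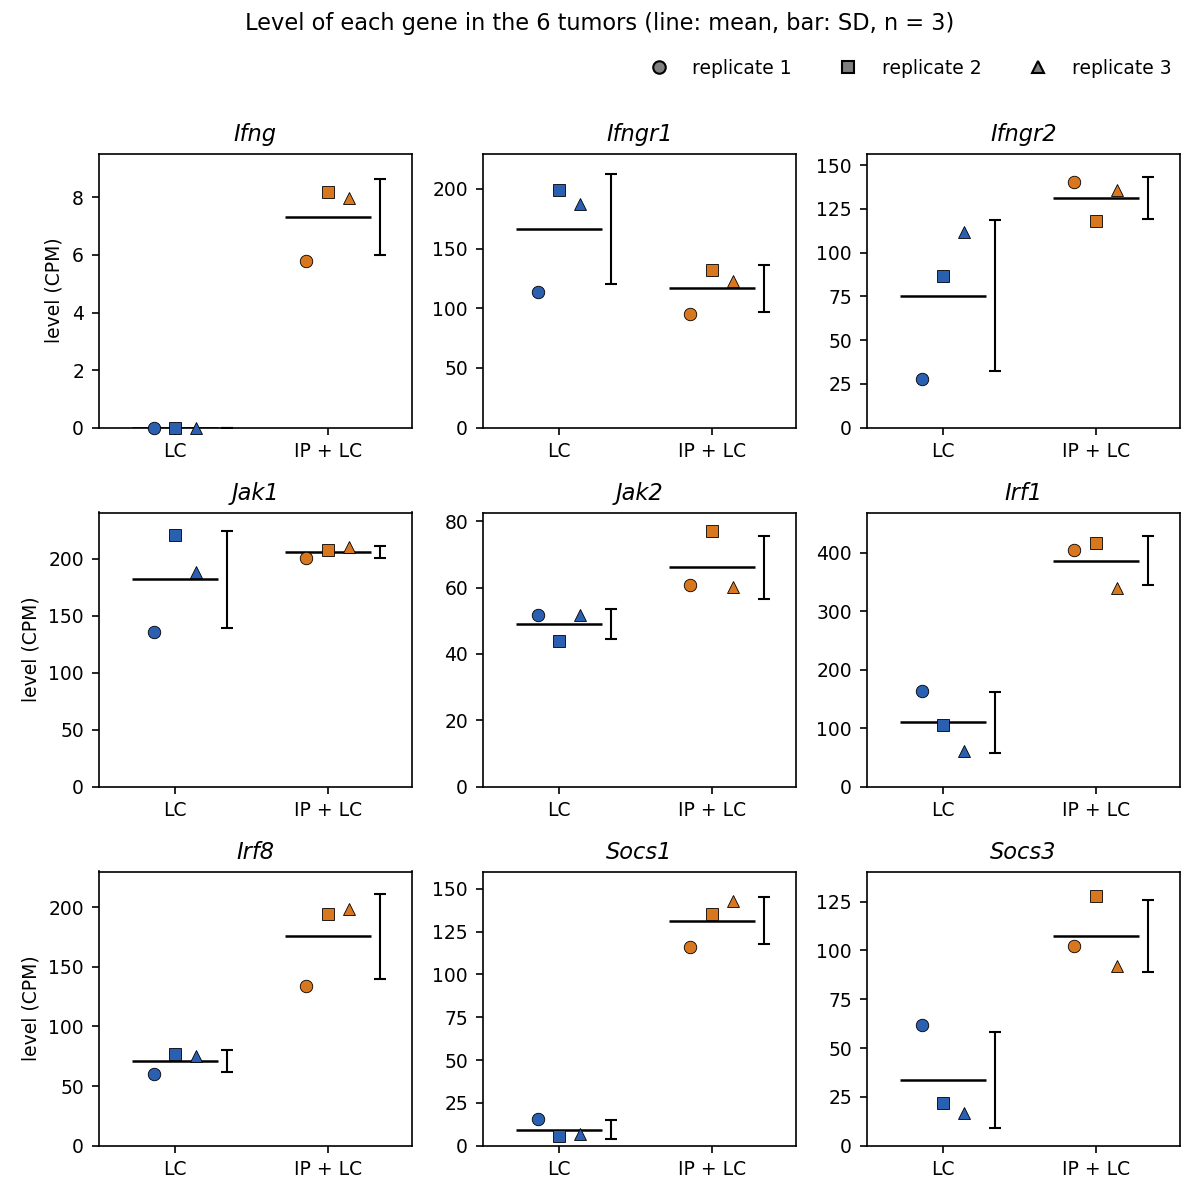
Level in CPM (y axis, from 0) of the 9 genes in the 3 LC and 3 IP + LC tumors, 1 panel per gene. Points are tumors, lines are means and bars are SDs. The groups overlap for Ifngr1 and Jak1 and are apart for the other 7 genes.

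The ligand was detected in the IP + LC group only. Ifng (ENSMUSG00000055170, chr10:118441046-118445892, plus strand) had 0 UMIs in each of the 3 LC tumors and 8, 14 and 11 UMIs in the IP + LC tumors. Its level was 5.80, 8.17 and 7.99 CPM in the IP + LC tumors, or 7.32 ± 1.32 CPM (SD, n = 3). Summed over the group, the 33 UMIs (exact Poisson 95% interval 22.7 to 46.3, counting error only) gave 7.38 CPM of the summed TMM-scaled library sizes, and the LC group, with 0 UMIs, could have held up to 0.988 CPM at 3 UMIs over the group. Set against this ceiling, the pooled IP + LC level was 7.47-fold higher, a ratio that leaves out the counting error of the 33 UMIs. The counts of Ifng were too low for the filter of the test. In the fit without this filter, the adjusted p of edgeR's quasi-likelihood test was 0.000111, and DESeq2 gave 0.00366. That edgeR fit also gave other genes far smaller adjusted p-values, such as 7.33e-10 for Irf1 against 0.00511 with the filter. With 1 tumor left out, Ifng entered some filtered edgeR fits through its IP + LC counts. Its adjusted p there ranged from 0.000508 (without LC replicate 1) to 0.0290 (without IP + LC replicate 1). An overlapping gene on the same strand, Gm49751, covers 25.95% of its exonic bases and had 1 UMI in all 6 libraries.

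The level of Ifng was set beside T and NK cell markers, since these cells are its usual source. The 12 markers summed to 172 to 224 CPM in the LC tumors and to 178 to 309 CPM in the IP + LC tumors, and 10 of them were tested. Gzmb, a cytotoxic granule protease and the most abundant of the list in the IP + LC tumors, was higher (11.5 ± 4.14 CPM in the LC tumors against 45.0 ± 17.6 CPM), Klrb1c, an NK cell receptor, was lower, and the other 8 did not pass. Among all tested genes, 16.8% were higher and 19.6% lower. By the mean over all 6 tumors, the most abundant of the list was Nkg7, at 34.7 ± 4.72 CPM in the LC tumors against 37.5 ± 8.70 CPM in the IP + LC tumors. Per UMI of these markers, Ifng was at 2.806% in the pooled IP + LC tumors, with 33 UMIs beside 1176 of the markers. In the LC tumors, 0 UMIs stood beside 621 of the markers, and 3 UMIs would have been 0.4831%. Against that ceiling the pooled IP + LC ratio was 5.81-fold higher, leaving out the counting error of the 33 UMIs. Compared between the tumors with 0.5 UMIs added, the ratio did not overlap between the groups (exact permutation p = 0.1, the smallest possible, adjusted over 6 ratios 0.2).

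On a list of inducers of interferon-gamma, their receptors and an inhibitor, 8 of 15 genes were tested, of which 4 were significantly higher and 2 lower, with a median log2 fold change of 0.80. Among all tested genes 16.8% were higher and 19.6% lower, and the share of lower genes on the list was near the latter. Il12rb1, a chain of the IL-12 receptor, had 3, 1 and 1 UMIs in the LC tumors and 23, 38 and 21 in the IP + LC tumors (log2 fold change 3.36, 95% interval 2.102 to 4.62, adjusted p = 0.00354 by edgeR's quasi-likelihood test), and with so few UMIs in the LC tumors its fitted fold depends on the prior count. Il18bp, which counts among the 4 higher genes but is no inducer, as it encodes the secreted protein that binds and blocks IL-18, was at 11.2 ± 3.83 CPM in the LC tumors against 63.7 ± 11.3 CPM in the IP + LC tumors (log2 fold change 2.41, adjusted p = 0.00111). The IL-18 system did not move in 1 direction. The receptor chain Il18rap was higher (log2 fold change 1.29, adjusted p = 0.0121), whereas Il18 itself (log2 fold change -0.86, adjusted p = 0.0283) and the receptor chain Il18r1 (log2 fold change -1.57, adjusted p = 0.0141) were lower. Il15ra, which presents IL-15 to T and NK cells, was higher with a log2 fold change of 1.33 (adjusted p = 0.0121). Some cytokine subunits had counts too low for the test. Il12a had 11 UMIs in the LC tumors against 3 in the IP + LC tumors, a ratio of 0.185 on the TMM-scaled library sizes with a counting interval of 0.0332 to 0.702. Il12b, the other subunit of IL-12, had 3 and 10 UMIs (ratio 2.27, interval 0.583 to 12.8). The subunits of IL-27 were seen with 1 and 11 UMIs for Il27 (ratio 7.47, interval 1.09 to 322) and 3 and 17 for Ebi3 (ratio 3.85, interval 1.11 to 20.5). By CPM the groups overlapped for Il12b and Ebi3 and not for Il12a and Il27. These intervals cover counting error of the pooled UMIs and not the spread between tumors.

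Neither receptor chain passed the test, and their estimates had opposite signs. Ifngr1 (ENSMUSG00000020009, chr10:19591949-19610229, plus strand), the chain that binds the ligand, was at 114, 199 and 187 CPM in the LC tumors and 94.99, 132 and 123 CPM in the IP + LC tumors. The groups overlapped, through LC replicate 1. The log2 fold change of -0.52 (SE 0.26, 95% interval -1.103 to 0.05) did not pass, with an adjusted p of 0.162 by edgeR's quasi-likelihood test. Without LC replicate 1, it was -0.71 with an adjusted p of 0.00159.

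Ifngr2 (ENSMUSG00000022965, chr16:91547072-91565623, plus strand), the signaling chain, was at 27.6, 87.0 and 112 CPM in the LC tumors and 141, 118 and 136 CPM in the IP + LC tumors. The lowest IP + LC tumor lay above the highest LC tumor, and the LC tumors were spread widely, at 75.5 ± 43.3 CPM against 131 ± 11.98 CPM. The log2 fold change of 0.75 (SE 0.38, 95% interval -0.11 to 1.62) did not pass (adjusted p = 0.176 by edgeR's quasi-likelihood test). It passed without LC replicate 1, at 0.41 (adjusted p = 0.0414), and without LC replicate 3, at 1.097 (adjusted p = 0.0981).

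A ratio of 2 genes within a library does not depend on scaling between libraries, and 6 such ratios were compared by a two-sided exact permutation test, whose smallest possible p with 3 against 3 tumors is 0.1. The ratio of Ifngr2 to Ifngr1 UMIs was 0.242, 0.437 and 0.597 in the LC tumors and 1.48, 0.890 and 1.11 in the IP + LC tumors. Every IP + LC tumor lay above every LC tumor, including LC replicates 2 and 3. The mean ratio on the log2 scale was 1.495 higher, or 2.82-fold (exact permutation p = 0.1, adjusted over the 6 ratios 0.2).

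**Figure D3:**
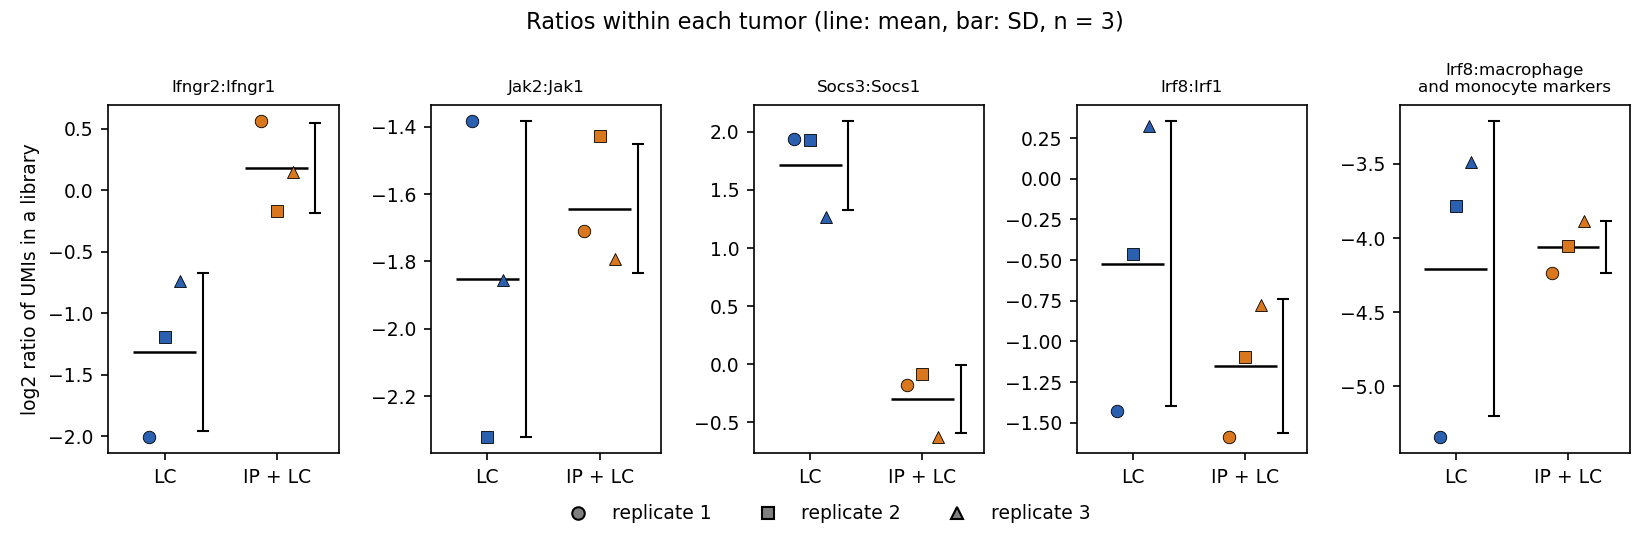
Ratios of UMIs within each tumor on a log2 scale (y axis, each panel with its own range) for 5 of the 6 ratios compared, with 3 LC and 3 IP + LC tumors, means as lines and SDs as bars. Ifngr2 to Ifngr1 is higher and Socs3 to Socs1 lower in every IP + LC tumor, and the other 3 ratios overlap. The ratio with Ifng is not drawn, as it is 0 in the LC group.

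Neither kinase passed the test. Jak1 (ENSMUSG00000028530, chr4:101152367-101265282, minus strand), the kinase bound to IFNGR1, was at 136, 221 and 188 CPM in the LC tumors and 200.1, 208 and 210 CPM in the IP + LC tumors, with overlap. Its log2 fold change was 0.17 (SE 0.22) and the 95% interval, -0.33 to 0.67, allowed anything between 0.798-fold and 1.59-fold (adjusted p = 0.597 by edgeR's quasi-likelihood test). Jak1 did not pass under any of the 15 other settings tried.

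Jak2 (ENSMUSG00000024789, chr19:29251828-29313080, plus strand), the kinase bound to IFNGR2, was at 51.7, 43.9 and 51.7 CPM in the LC tumors and 60.9, 77.0 and 60.3 CPM in the IP + LC tumors. The groups did not overlap, but the difference was small, with a log2 fold change of 0.44 (SE 0.21, 95% interval -0.03 to 0.91, adjusted p = 0.149 by edgeR's quasi-likelihood test). Without LC replicate 1 it was 0.49 and passed, with an adjusted p of 0.0420. The ratio of Jak2 to Jak1 overlapped between the groups, with a log2 difference of 0.21 (exact permutation p = 0.5, adjusted 0.6).

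Of 7 STAT factors and other JAK kinases, all were tested, 2 were significantly higher and 0 lower, with a median log2 fold change of 0.57, beside 16.8% higher and 19.6% lower over all tested genes. Leaving out LC replicate 1, 4 were higher and 0 lower, beside 28.3% higher and 28.7% lower over all genes tested in that fit. Stat2, a factor below the interferon-alpha receptor, was at 48.2, 39.2 and 26.3 CPM in the LC tumors and 94.3, 125 and 85.0 CPM in the IP + LC tumors. No tumor crossed, at a log2 fold change of 1.45 (SE 0.27, 2.74-fold, adjusted p = 0.00583 by edgeR's quasi-likelihood test). Stat3, the main factor below gp130, was 1.81-fold higher (adjusted p = 0.0239). Jak3, the kinase of the common cytokine receptor chain, overlapped between the groups and did not pass (log2 fold change 1.37, adjusted p = 0.105, and 2.12 with adjusted p = 0.00325 without LC replicate 1), and neither did Tyk2, a kinase of the interferon-alpha receptor (log2 fold change 0.57, adjusted p = 0.165, and 0.66 with adjusted p = 0.0645 without LC replicate 1).

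Irf1 and Irf8 were both significantly higher. Irf1 (ENSMUSG00000018899, chr11:53770014-53778374, plus strand) was at 164, 106 and 60.2 CPM in the LC tumors and 405, 416 and 339 CPM in the IP + LC tumors. The LC tumors differed among themselves, yet the highest was below all IP + LC tumors. The log2 fold change was 1.84 (SE 0.33, 95% interval 1.09 to 2.59), or 3.58-fold, with an adjusted p of 0.00511 by edgeR's quasi-likelihood test. Gm17334, on the opposite strand, overlaps 3.395% of the exonic bases of Irf1, and it had 14 UMIs in the LC libraries and 77 in the IP + LC libraries against 301 and 1738 of Irf1. Whether reads were assigned by strand is not given in the sources used here.

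Irf8 (ENSMUSG00000041515, chr8:120736358-120756694, plus strand) was at 60.3, 76.8 and 75.4 CPM in the LC tumors and 134, 194 and 198 CPM in the IP + LC tumors. Its LC tumors lay close together, and no tumor crossed. The log2 fold change was 1.298 (SE 0.23, 95% interval 0.78 to 1.82), or 2.46-fold, with an adjusted p of 0.00470 by edgeR's quasi-likelihood test. The ratio of Irf8 to Irf1 overlapped between the groups (log2 difference -0.63, exact permutation p = 0.4, adjusted 0.6).

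Irf8 was also set beside macrophage and monocyte markers. All 9 were tested, and 5 were significantly higher (Adgre1, C1qa, C1qc, Ly6c2 and Ccr2) and 0 lower, beside 16.8% higher and 19.6% lower over all tested genes. The list summed to 851 to 2481 CPM in the LC tumors and 2534 to 3236 CPM in the IP + LC tumors. C1qa, the most abundant over all 6 tumors, was at 568, 157 and 110 CPM in the LC tumors and 585, 791 and 733 CPM in the IP + LC tumors, so that LC replicate 1 was close to the IP + LC group. Without LC replicate 1, 8 of the 9 markers were higher, all but Mrc1, beside 28.3% of all genes tested in that fit, and C1qa was higher by 2.404 on the log2 scale (adjusted p = 1.86e-07). The ratio of Irf8 to the summed markers was 0.0243, 0.0723 and 0.0886 in the LC tumors and 0.0529, 0.0601 and 0.0677 in the IP + LC tumors. The groups overlapped, with a log2 difference of 0.15 (exact permutation p = 1, adjusted 1). Without LC replicate 1 this difference was -0.42. Markers of dendritic cells, which also use IRF8, summed to 96.4 to 114 CPM in the LC tumors and 71.1 to 94.4 CPM in the IP + LC tumors. Of the 4 tested, Batf3 was higher and Ccr7 was lower. Of the 5 tested without LC replicate 1, 1 was higher and 3 lower, in a fit where 28.7% of all genes were lower.

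The other IRF factors included 7 genes, of which 5 were tested, 3 were significantly higher and 0 lower (median log2 fold change 0.56). Beside them, 16.8% of all tested genes were higher and 19.6% lower. Irf7, the amplifier of interferon-alpha genes, was at 58.5, 47.8 and 39.8 CPM in the LC tumors and 100.1, 199.6 and 180.1 CPM in the IP + LC tumors (log2 fold change 1.74, adjusted p = 0.00423 by edgeR's quasi-likelihood test). Irf5, a factor of macrophages, rose 2.68-fold (adjusted p = 0.00700). Irf9, which acts below the interferon-alpha receptor, rose 1.47-fold (adjusted p = 0.0742). Irf3 overlapped between the groups and did not pass, at a log2 fold change of -0.36 (adjusted p = 0.253).

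The largest difference among the 8 tested genes was that of Socs1 (ENSMUSG00000038037, chr16:10782240-10785536, minus strand), the inhibitor of the interferon receptor kinases. Its level was 15.5, 5.48 and 6.78 CPM in the LC tumors, from 9, 7 and 8 UMIs, and 116, 135 and 143 CPM in the IP + LC tumors, from 160, 232 and 197 UMIs. Even the highest LC tumor was far below the lowest IP + LC tumor. The log2 fold change was 3.98 (SE 0.33, 95% interval 3.23 to 4.74), or 15.8-fold (9.37 to 26.7), with an adjusted p of 0.000565 by edgeR's quasi-likelihood test. This interval lay above the intervals of the other 7 tested genes.

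Socs3 (ENSMUSG00000053113, chr11:117966079-117970047, minus strand), the inhibitor at gp130 receptors, was at 62.0, 21.9 and 16.9 CPM in the LC tumors and 102, 128 and 92.2 CPM in the IP + LC tumors. LC replicate 1 stood above the other LC tumors and below all IP + LC tumors. The log2 fold change was 1.80 (SE 0.42, 95% interval 0.86 to 2.75), or 3.49-fold, with an adjusted p of 0.0138 by edgeR's quasi-likelihood test, and 2.47 without LC replicate 1.

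The ratio of Socs3 to Socs1 did not overlap between the groups. For each Socs1 UMI there were 4, 4 and 2.5 UMIs of Socs3 in the LC tumors and 0.881, 0.944 and 0.645 in the IP + LC tumors. LC replicate 1 lay with LC replicate 2. The log2 difference of the ratio was -2.01, or 0.248-fold (exact permutation p = 0.1, adjusted 0.2).

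Of the other SOCS proteins and inhibitors, all 15 were tested, 3 were significantly higher and 0 lower, and the median log2 fold change was 0.13. These 3 of 15 were a share close to the 16.8% of all tested genes that were higher. Leaving out LC replicate 1, 5 were higher and 2 lower, beside 28.3% higher and 28.7% lower over all genes tested in that fit. Those higher were Ptpn1, a phosphatase of JAK2, at 85.3 ± 8.01 CPM in the LC tumors against 167 ± 9.95 CPM in the IP + LC tumors (adjusted p = 0.00687 by edgeR's quasi-likelihood test), Usp18, an inhibitor at the interferon-alpha receptor (2.21-fold, adjusted p = 0.0167), and Ptpn6, a phosphatase of blood cells (1.69-fold, adjusted p = 0.0521). Cish, Socs2, Socs4, Socs5, Socs6 and Socs7 did not pass. Socs2, which acts on growth hormone signaling, was at 53.4, 211 and 211 CPM in the LC tumors and 84.8, 75.3 and 93.7 CPM in the IP + LC tumors, a log2 fold change of -0.93 (adjusted p = 0.134) and LC replicate 1 was below all other tumors. Socs2 passed as lower without LC replicate 1, at -1.31 (adjusted p = 3.86e-06).

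Of 20 other cytokines and chains of receptor complexes that use JAK1 or JAK2, 16 were tested, 5 were significantly higher and 3 lower, with a median log2 fold change of 0.31. Over all tested genes, 16.8% were higher and 19.6% lower, and the share of lower genes on the list was close to this. Leaving out LC replicate 1, 8 were higher and 3 lower, beside 28.3% higher and 28.7% lower over all genes tested in that fit. Csf2rb, the shared chain of the GM-CSF receptor, was 2.31-fold higher (adjusted p = 0.00827 by edgeR's quasi-likelihood test), Il2rg, the common cytokine receptor chain, 2.42-fold higher (adjusted p = 0.0127), and Ifnar1, a chain of the interferon-alpha receptor, 2.07-fold higher (adjusted p = 0.00947). The lower genes were Lifr, Il6st and Il11ra1. Others of the gp130 family did not share this direction, as the ligand Lif was higher (log2 fold change 1.95, adjusted p = 0.0254), and Il6, Il6ra and Osmr did not pass. Il6 passed without LC replicate 1, at a log2 fold change of 2.53 (adjusted p = 0.00295). Lifr, a receptor chain that pairs with gp130, was at 39.6, 123 and 125 CPM in the LC tumors and 34.1, 35.6 and 37.0 CPM in the IP + LC tumors (log2 fold change -1.47, adjusted p = 0.0195). LC replicate 1 stood near the IP + LC group, and leaving it out gave -1.79 (adjusted p = 5.14e-07). The cytokine Il11 had 3 UMIs in the LC tumors against 16 in the IP + LC tumors (ratio 3.62, interval 1.04 to 19.4).

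All 12 interferon-gamma target genes were tested and all 12 were significantly higher with IP, without overlap between the groups and with a median log2 fold change of 2.81. Among all tested genes, 16.8% were significantly higher and 21.6% were higher without overlap. The list was written with earlier results of these data known, so its count is a description. Gbp2, a GTPase of the defense against intracellular microbes, was at 111 ± 3.56 CPM in the LC tumors against 1265 ± 158 CPM in the IP + LC tumors (log2 fold change 3.51, adjusted p = 0.000354 by edgeR's quasi-likelihood test). Cxcl9, a chemokine for activated T cells, was at 25.8, 13.3 and 34.7 CPM in the LC tumors and had a group mean of 1150 ± 228 CPM in the IP + LC group (log2 fold change 5.55, adjusted p = 0.000365). Igtp, another GTPase, was 10.9-fold higher (adjusted p = 0.000522). Cd274, which encodes the checkpoint ligand PD-L1, was at 6.89, 10.2 and 11.9 CPM in the LC tumors and 64.5, 70.6 and 71.9 CPM in the IP + LC tumors (log2 fold change 2.76, adjusted p = 0.000716). Over the 6 pathway lists together, 63 of 76 genes were tested, 29 were higher and 5 lower, and the median log2 fold change was 0.56. The shares among all tested genes were 16.8% higher and 19.6% lower.

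**Figure D4:**
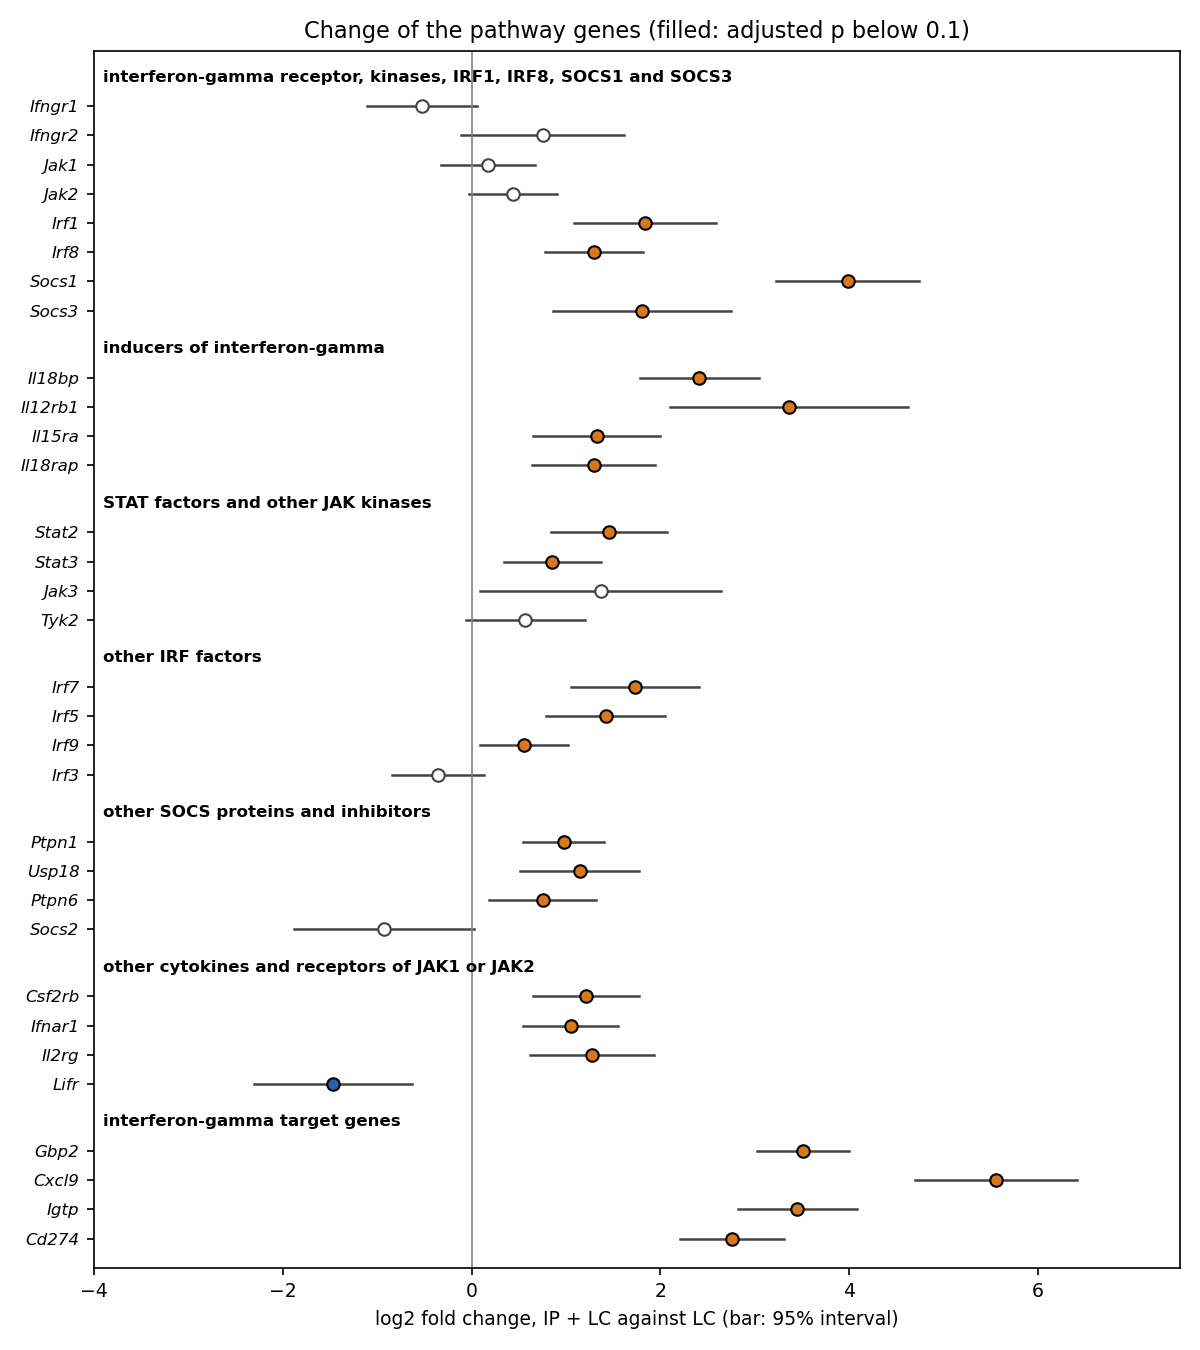
Log2 fold change of IP + LC against LC (x axis) for the 8 tested genes and the 4 genes with the smallest p from each pathway list, with 95% intervals as bars. Filled points passed the adjusted p of 0.1. Socs1 lies apart from Irf1, Irf8 and Socs3, and the intervals of Ifngr1, Ifngr2, Jak1 and Jak2 include 0.

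The tumors also differed in the marker transcripts of several cell types, and whether through cell number or RNA per cell cannot be told apart. The part of these differences in the results above was not tested. The counts of markers below stand beside 16.8% higher and 19.6% lower among all tested genes. Lung epithelium markers, among them Scgb1a1, summed to 69936 to 76328 CPM in the LC tumors and 7957 to 14072 CPM in the IP + LC tumors, and all 5 were significantly lower. All 6 alveolar macrophage markers, among them Chil3, were lower as well (1419 to 1698 CPM and 179 to 383 CPM), as were all 5 endothelial markers, among them Cldn5 (894 to 1594 CPM and 331 to 415 CPM), and all 4 B cell markers, among them Cd79b (196 to 283 CPM and 34.1 to 137 CPM). Of 6 tested neutrophil markers, among them S100a9, 3 were lower and 0 higher (821 to 1957 CPM and 264 to 344 CPM), and Ly6g did not exceed 3 UMIs in any library. Without LC replicate 1, 3 were lower and 1 higher, which was Mmp9 (log2 fold change 1.07, adjusted p = 0.0804 by edgeR's quasi-likelihood test). Fibroblast markers were split, with Col1a1 and Col1a2 higher and Pdgfra, Dcn and Lum lower (961 to 1583 CPM and 1036 to 1173 CPM).

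Irf1, Irf8 and Socs3 passed under all 15 other settings of scaling, filtering, testing and tumors left out, and Socs1 under the 14 in which it was tested. Their log2 fold changes ranged from 1.53 to 2.22 for Irf1, 1.22 to 1.49 for Irf8, 3.68 to 4.42 for Socs1 and 1.46 to 2.47 for Socs3. The receptor chains and Jak2 depended on the setting, from -0.78 to -0.36 for Ifngr1, 0.41 to 1.097 for Ifngr2 and 0.11 to 0.60 for Jak2. Without LC replicate 1, all 9 genes were tested and 8 passed, 7 higher and Ifngr1 lower, but 28.3% of all tested genes were then higher and 28.7% lower. The 7 include Ifng, which had 0 UMIs in the LC tumors and passed the filter only through its IP + LC counts. Its call there adds no support.

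**Figure D5:**
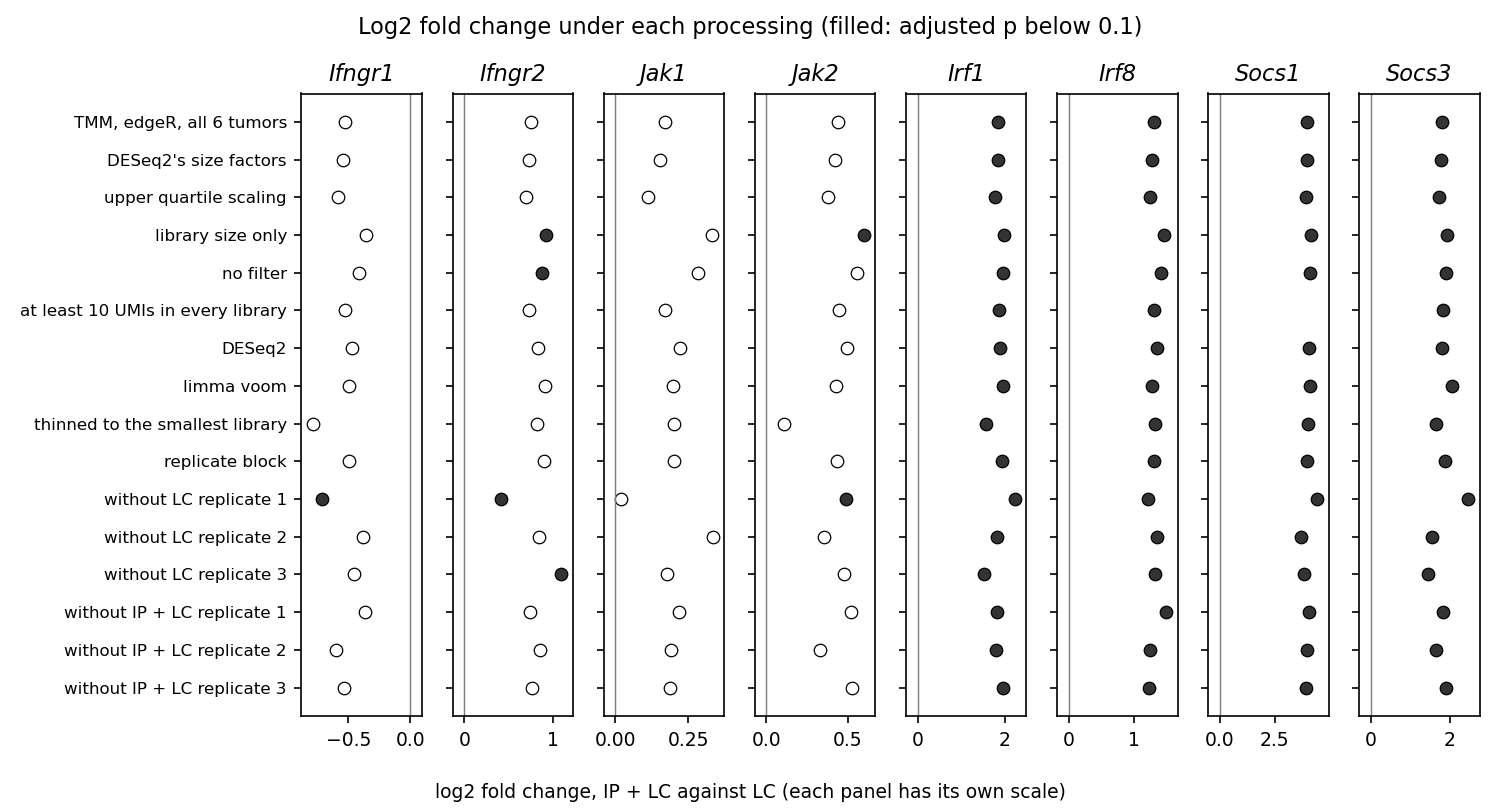
Log2 fold change of IP + LC against LC (x axis, each panel with its own range) of the 8 tested genes under each setting (rows), where filled points passed the adjusted p of 0.1. Irf1, Irf8, Socs1 and Socs3 are filled wherever they were tested, Jak1 nowhere, and Ifngr1, Ifngr2 and Jak2 in 1, 4 and 2 of the 15 alternatives.

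Last, the genes whose profile over the 6 tumors was most like that of each tested gene were taken, by the root mean square (RMS) difference of log2(CPM + 4) after centring per gene. With 6 tumors and 11240 genes, this is a description. Socs1 was nearest to Calhm6 (RMS difference 0.187), Igtp (0.215) and Serpina3g (0.233). Irf8 was nearest to Tapbp (0.104), Znfx1 (0.121) and Dck (0.133). For Irf1 these were Areg (0.117), Zwilch (0.122) and Bub1b (0.131), and for Socs3 they were Rcc1 (0.0857), Troap (0.122) and Cip2a (0.123). Jak1 followed Oga (0.0293), Nkapd1 (0.0448) and Gbf1 (0.0537), and Jak2 followed Rab35 (0.0544), Rcor1 (0.0587) and Sprtn (0.0680). Ifngr1 was nearest to Fyco1 (0.0786), Bpgm (0.0851) and Asph (0.0871), and Ifngr2 to Gm12346 (0.0433), Icos (0.0839) and Setd5 (0.103). With 1 CPM added in place of 4, all 3 nearest genes of Jak1 and Jak2, 2 of 3 of Irf8 and Socs1, 1 of 3 of Ifngr1, Ifngr2 and Socs3 and 0 of 3 of Irf1 were found again.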

How the data were processed

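RNA of tumor tissue from the LC (n = 3) and IP + LC (n = 3) models was sequenced from the 3′ end with barcodes and UMIs of 10 nucleotides. According to the study's methods and the submitters' processing notes, the authors extracted UMIs with UMI-tools 1.1.1, trimmed with Trim Galore 0.6.7, aligned to GRCm38 with HISAT2 2.2.1 and assigned reads with featureCounts 2.0.1. The deposited values were raw UMI counts per gene, 1 table per tumor. Because identical UMIs are collapsed, PCR copies do not add to a count, and intervals on counts cover counting error only. The annotation release and the strand setting are not given in the sources used here. All 31130 identifiers were found in GENCODE M21.

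Counts were fitted in R 4.3.3 with edgeR 4.0.16 (filterByExpr with a minimum count of 10 and a minimum total of 15 in 3 libraries, TMM factors from 0.905 to 1.07, glmQLFit and glmQLFTest, Benjamini-Hochberg adjustment over 11240 genes), after the procedure was tested on simulated data. The biological coefficient of variation was 22.9%. The labels number the tumors and do not say whether each came from a separate mouse, so p-values measure the spread between these samples, which may be technical. Ratios added 0.5 UMIs to both terms and were compared by exact permutation in scipy 1.17.1. Gene overlaps came from GENCODE M21 and shared sequence from blastn 2.17.0 (81 nucleotides, 95% identity).

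All 9 genes are described. From each pathway list the 4 tested genes with the smallest p were named, with genes at or below 3 UMIs in 1 group. The 3 nearest genes of each tested gene and the marker of each list with the highest mean over the 6 tumors were named as well. Il18, Il18r1, Il6st, Il11ra1, Lif, Il6, Il6ra, Osmr and the markers named for their calls were chosen after their values were seen. Of the genes first listed, 1 was left out of the lists and counts and is not reported here. The genes and lists were chosen with earlier results of these data known. As alternatives, TMM was replaced by upper quartile scaling, by DESeq2's size factors and by library size only, the filter by none or by at least 10 UMIs in every library, and the test by DESeq2 1.42.0 or voom of limma 3.58.1. Thinning to the smallest library, a replicate block, a limit of 0.05 and leaving out each tumor in turn were also tried.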

Additional observations from a re-analysis of the deposited data

How the results depend on the processing

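The calls of the receptor chains and Jak2 rest on few tumors. Of the 9 genes, 4 passed in the comparison with all tumors, 4 to 8 when each tumor was left out in turn (8 without LC replicate 1) and 3 to 6 under the other settings. These counts include Ifng wherever it was tested, although it was at 0 UMIs in the LC group. Of the wider pathway genes, 34 passed, against 28 to 45 with tumors left out and 23 to 37 otherwise. Over all tested genes, the share that passed was 36.37%, 19.22% to 56.95% and 10.93% to 40.43%. With library size only, which shifts the median of all genes by 0.16 on the log2 scale, Ifngr2 (log2 fold change 0.93, adjusted p = 0.0835 by edgeR) and Jak2 (0.60, adjusted p = 0.0672) passed. Without the filter on low counts, Ifngr2 passed at 0.87 (adjusted p = 0.0156). With tumors left out, the log2 difference of the Jak2 to Jak1 ratio ranged from -0.025 (without LC replicate 2) to 0.44, and that of Irf8 to macrophage and monocyte markers from -0.42 (without LC replicate 1) to 0.51. The cause was not tested. The log2 difference of Ifng to T and NK cell markers was 3.51 with 0.5 UMIs added and 2.57 with 1 UMI, since the LC group was at 0 UMIs. The replicate numbers did not pair the tumors (deviations of same-numbered tumors correlated at r = 0.0260, -0.120 and 0.112). With a replicate block 4 of the 9 genes and 32 of the wider pathway genes passed. Depth limits Ifng, Il12rb1 and Socs1 in the LC group, where they had 0 to 9 UMIs.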
